A study of Mus musculus with 8 samples.

Results

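The genes described here are Trp53, which encodes the transcription factor p53, and 9 genes that p53 is known to activate: Mdm2, Ccng1, Cdkn1a, Btg2, Plk2, Perp, Zmat3, Trp53inp1 and Sesn1. They were chosen by name, and each was read from 1 probe set of the array. All 10 were measured, among 16253 genes tested. The platform annotation names the probe sets of the 9 targets. The probe set of Trp53 is not listed there and was named through its number, which is the Entrez gene ID of Trp53. A pseudogene, Trp53-ps, is annotated in the mouse genome, and whether the probes tell it apart was not tested.

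Expression was measured in E14Tg2a cells, a line of mouse embryonic stem (ES) cells, after transfection with small interfering RNAs (siRNAs). The 4 groups, with 2 arrays each, were taken at 96 h after a control siRNA against firefly luciferase, after Tet1 siRNA #1 (siRNA 1) or after Tet1 siRNA #2 (siRNA 2), and at 48 h after siRNA 1. Tet1 encodes an enzyme that hydroxylates methylated cytosine in DNA. All cells belong to a single line and all received a duplex, and a 48 h control was not analysed here. The labels do not say that paired arrays stem from different cultures. The p-values therefore reflect only the spread between arrays, which may be technical. Values are log2 expression from RMA, in which a difference of 1 is a doubling.

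The p53 protein is held at a low level in unstressed cells by Mdm2, a ubiquitin ligase that marks it for degradation. DNA damage and other stresses release it, and it then binds DNA as a tetramer and activates genes that halt the cell cycle, start apoptosis, repair DNA or turn metabolism down. Mdm2 is itself a target, so that p53 raises its own inhibitor. Because p53 is regulated mainly after transcription, the level of Trp53 mRNA is a separate measure from the levels of its targets. In mouse ES cells p53 is known to promote differentiation, in part by repressing Nanog.

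Across the series, arrays of a group correlated with r from 0.997 to 0.998 over all genes. The probe set with the Entrez number of Tet1 was lower in every siRNA group. It read 12.35 and 12.15 in the controls, 11.04 and 11.09 with siRNA 1 at 96 h, 11.32 and 11.14 with siRNA 2, and 9.70 and 9.82 with siRNA 1 at 48 h. It fell 2.27-fold with siRNA 1 (adjusted p = 0.000173) and 2.02-fold with siRNA 2 (adjusted p = 0.000681) at 96 h. All 12 ES cell markers measured had group means above 8 in all 4 groups. Lung epithelium markers separated the times. The mean of the 21 measured markers was between 6.97 and 7.46 on the 6 arrays of 96 h, controls included, and 5.48 and 5.51 on the arrays of 48 h. Group means of 7 of the 21 lay within 1 of the level of an absent transcript at 48 h, and of 1 to 2 in the groups of 96 h. Their summed linear level was 7994 to 13091 at 96 h and 1838 to 1881 at 48 h. Scgb1a1, a secretoglobin made by club cells of the airways, averaged 12.65 in the controls and 3.87 at 48 h. The level of an absent transcript was set at 3.715, the highest reading on any array of the bacterial control trp, taken as absent from the RNA. The trp probe sets averaged 3.40 to 3.58. The difference between probe sets at both ends of the actin transcript, a measure of RNA quality, was 0.26 to 0.50 at 96 h and 0.40 to 0.48 at 48 h. The markers of fibroblasts and feeder cells (16 measured) averaged 5.57 to 5.63 in the controls, 5.71 to 5.83 with siRNA 1 and 5.61 to 5.84 with siRNA 2 at 96 h, and 5.35 to 5.38 at 48 h. Those of endothelium and blood (11 measured) averaged 5.93 to 6.08 over the arrays of 96 h and 5.64 to 5.69 at 48 h.

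The comparison of both Tet1 siRNAs with the control at 96 h asked which of these genes differed between the Tet1 siRNA and control siRNA arrays. Whether a difference stems from the lower Tet1 level was not tested. Of the 10 genes 7 rose, 0 fell and 3 did not pass the test. Passing here means an adjusted p below 0.05 in limma, with Benjamini-Hochberg adjustment over all 16253 genes. The 7 that rose were Plk2, Perp, Cdkn1a, Mdm2, Btg2, Zmat3 and Ccng1, by 1.28- to 2.01-fold. Over all genes 23.8% were called in this comparison, 11.7% higher and 12.0% lower. At an unadjusted p below 0.05 the same count of 7 was higher and 0 lower, and the share of all genes at that threshold was not counted. Among markers of other cells, 5 of 16 fibroblast markers rose and 1 fell, 2 of 11 endothelium and blood markers rose and 1 fell, and 3 of 21 lung markers fell and 0 rose in limma. At an unadjusted p below 0.05, 1 lung marker was higher. The 3 lung markers that fell were Hopx, Napsa and Bpifa1. Hopx and Napsa averaged 9.82 and 7.14 at 48 h, near their 9.71 and 7.13 with siRNA 1 at 96 h. Bpifa1 averaged 3.81 at 48 h and 7.94 with siRNA 1 at 96 h. The part of fibroblast, endothelial and blood RNA in the result was not tested. Of the 12 ES cell markers 2 rose and 5 fell. Nanog, a transcription factor of the pluripotent state, fell by 1.08 ± 0.083 on the log2 scale from a control mean of 12.25 (adjusted p = 9.98e-05), and Esrrb, a nuclear receptor of the same network, fell by 1.11 ± 0.068 from 9.88. The 2 markers that rose were Utf1, by 0.58 ± 0.079, and Tdgf1, by 0.30 ± 0.070. Pou5f1 and Dppa5a did not pass (adjusted p = 0.197 and 0.669). All of these were named after their values were seen, and the part of the ES cell markers in the result was not tested. The median log2 difference of the 10 genes was 0.40, against -0.023 over all genes. In bulk RNA, fewer cells that express a gene and less RNA per cell cannot be told apart. The count of 7 was the same when the 48 h arrays were left out of the fit and when the mean of the lung markers was a covariate. That mean was 7.36 and 7.39 in the controls, 7.32 and 7.14 with siRNA 1, and 7.46 and 6.97 with siRNA 2. With groups so close, the covariate could move this comparison little, so the unchanged count does not decide the part of lung RNA.

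Trp53 itself was not called at 96 h. Its values were 11.15 and 11.25 in the controls, 10.99 and 11.15 with siRNA 1, and 11.11 and 10.77 with siRNA 2. The siRNA 1 arrays overlapped the controls, the siRNA 2 arrays lay just below them, and the spread was widest between the siRNA 2 arrays. The log2 difference of both siRNAs from the control was -0.19 ± 0.12 (SE of the fit, 4 arrays against 2), with an adjusted p of 0.301. Within siRNA 2, the array with the lower Trp53 value also had the lower lung marker mean (6.97 against 7.46), and the part of lung RNA in that spread was not tested.

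**Figure D1:**
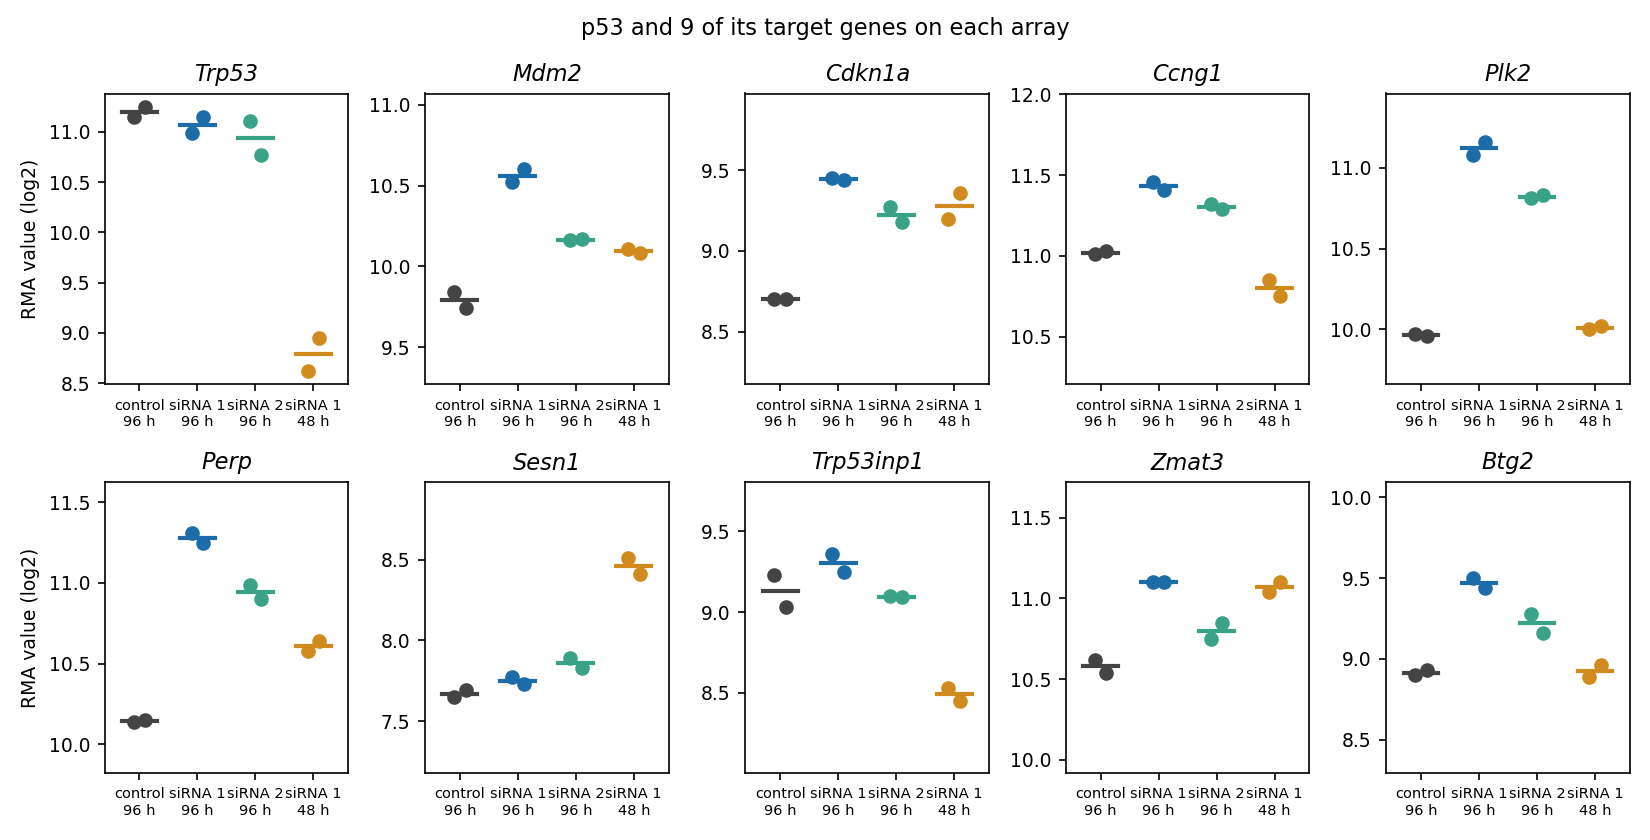
RMA values (log2) of Trp53 and the 9 targets on the 8 arrays, with the arrays as points and the group mean as a bar; the vertical axis spans the same range in every panel but that of Trp53, which is wider. Plk2 and Perp are higher in both siRNA groups at 96 h than in the controls, and Trp53 reads 8.62 and 8.95 at 48 h against 10.77 or more on every array of 96 h.

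Among genes whose products restrain p53, Mdm2 and Ccng1 rose. Mdm2, the ubiquitin ligase, read 9.84 and 9.74 in the controls, 10.52 and 10.60 with siRNA 1 and 10.16 and 10.17 with siRNA 2 at 96 h. Every siRNA array was above both controls, and the siRNA groups did not overlap each other. Over all genes, 43.8% had no overlap between the siRNA arrays and the controls at 96 h, in either direction. Between the siRNA groups, 41.1% of all genes had none. The rise with both siRNAs was 1.49-fold (log2 0.57 ± 0.065, adjusted p = 0.000599). Ccng1 encodes cyclin G1, an atypical cyclin that brings a phosphatase to Mdm2. It read 11.01 and 11.03 in the controls, 11.46 and 11.41 with siRNA 1, and 11.32 and 11.29 with siRNA 2. Its groups did not overlap either, and it rose 1.28-fold (log2 0.35 ± 0.064, adjusted p = 0.00566). The difference between its siRNA groups, 0.13 ± 0.074, did not pass (adjusted p = 0.593).

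The targets that restrain the cell cycle rose as well. Cdkn1a encodes p21, an inhibitor of cyclin-dependent kinases and the classical effector of arrest by p53. Both controls read 8.70, against 9.45 and 9.44 with siRNA 1 and 9.27 and 9.18 with siRNA 2. It rose 1.55-fold (log2 0.63 ± 0.071, adjusted p = 0.000573), and no siRNA array came near the controls. Btg2, an antiproliferative protein that acts with the deadenylase complex of mRNA decay, read 8.90 and 8.93 in the controls, 9.50 and 9.44 with siRNA 1 and 9.28 and 9.16 with siRNA 2. Its rise was 1.35-fold (log2 0.43 ± 0.067, adjusted p = 0.00282).

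Plk2, a polo-like kinase that p53 induces, showed the largest difference of the 10. It read 9.97 and 9.96 in the controls, 11.08 and 11.16 with siRNA 1 and 10.81 and 10.83 with siRNA 2. The arrays of a group lay close together and both siRNA groups of 96 h far above the controls, and the rise was 2.01-fold (log2 1.01 ± 0.061, adjusted p = 3.91e-05). Of all genes, 1.50% had a larger absolute difference.

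Among targets linked to cell death and stress, Perp and Zmat3 rose and Trp53inp1 did not pass. Perp encodes a membrane protein of desmosomes that takes part in apoptosis. It read 10.14 and 10.15 in the controls, 11.31 and 11.25 with siRNA 1 and 10.99 and 10.90 with siRNA 2, a rise of 1.96-fold (log2 0.97 ± 0.064, adjusted p = 5.53e-05). Of all genes, 1.68% had a larger absolute difference. Zmat3 is a zinc finger protein that binds RNA. It read 10.62 and 10.54 in the controls, 11.10 on both siRNA 1 arrays and 10.75 and 10.85 with siRNA 2. The rise was 1.29-fold (log2 0.37 ± 0.066, adjusted p = 0.00533), and without control replicate 2 its adjusted p was 0.0502, which leaves 6 of 10 called. Trp53inp1, a nuclear protein that assists p53 under stress, read 9.23 and 9.03 in the controls, 9.36 and 9.25 with siRNA 1 and 9.10 and 9.09 with siRNA 2. The siRNA 2 arrays lay between the controls and the siRNA 1 arrays just above them, and the log2 difference of both siRNAs was 0.066 ± 0.078 (adjusted p = 0.589).

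Sesn1 encodes a sestrin, an antioxidant protein that dampens the growth kinase mTORC1. It read 7.65 and 7.69 in the controls, 7.77 and 7.73 with siRNA 1 and 7.89 and 7.83 with siRNA 2. All siRNA arrays were slightly above the controls, and the log2 difference of 0.13 ± 0.064 did not pass (adjusted p = 0.183).

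The sequence before the start sites is shown because 7 of the 9 targets rose at 96 h. RefSeq promoter windows (GRCm38.p6, 250 bases before the start to 50 after it) were found for 7 of the 10 genes, in 9 windows. They were searched for the p53 consensus half-site, a motif of 10 bases that is its own reverse complement, so that a single strand covers both. It matched in 5 of 9 windows, of 5 genes, against 8.36% of all 32851 windows. Windows of the same gene were counted separately, and none was found for Perp, Zmat3 and Trp53inp1. The targets were chosen because p53 is known to activate them. A share above that of all windows was thus likely beforehand, and it does not bear on the rise at 96 h. Matches are descriptions of these letters and not evidence of binding. The windows of Cdkn1a, Mdm2, Ccng1 and Trp53 that hold a match are shown with the half-sites in capitals, the first 3 because these targets rose and the last because it is the gene of p53 itself.
Cdkn1a, chr17:29090729-29091028, plus strand: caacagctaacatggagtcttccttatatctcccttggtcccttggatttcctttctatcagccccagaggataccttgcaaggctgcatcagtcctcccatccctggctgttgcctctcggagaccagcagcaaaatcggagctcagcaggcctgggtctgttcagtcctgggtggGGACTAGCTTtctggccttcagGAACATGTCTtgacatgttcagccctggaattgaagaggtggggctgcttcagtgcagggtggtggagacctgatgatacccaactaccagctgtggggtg
Mdm2, chr10:117710709-117711008, minus strand: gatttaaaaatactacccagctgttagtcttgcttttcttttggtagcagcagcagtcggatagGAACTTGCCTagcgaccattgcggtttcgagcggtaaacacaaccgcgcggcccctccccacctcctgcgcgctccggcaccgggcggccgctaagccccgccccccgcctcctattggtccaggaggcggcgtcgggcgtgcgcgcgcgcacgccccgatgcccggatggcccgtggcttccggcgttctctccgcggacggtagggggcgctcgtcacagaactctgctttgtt
Ccng1, chr11:40755237-40755536, minus strand: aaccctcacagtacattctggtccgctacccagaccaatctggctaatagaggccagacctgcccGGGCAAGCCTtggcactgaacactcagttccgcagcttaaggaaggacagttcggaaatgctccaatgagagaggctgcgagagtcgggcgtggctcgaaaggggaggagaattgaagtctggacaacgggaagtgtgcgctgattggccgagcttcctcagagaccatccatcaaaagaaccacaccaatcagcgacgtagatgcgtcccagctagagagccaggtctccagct
Trp53, chr11:69580109-69580408, plus strand: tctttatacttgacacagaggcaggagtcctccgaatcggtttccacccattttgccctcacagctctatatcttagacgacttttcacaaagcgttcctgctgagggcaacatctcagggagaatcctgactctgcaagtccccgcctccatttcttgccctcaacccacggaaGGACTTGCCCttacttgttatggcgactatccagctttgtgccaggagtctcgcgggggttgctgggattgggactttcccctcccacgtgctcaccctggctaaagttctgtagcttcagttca

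The Cdkn1a window, at the upstream one of its 2 annotated starts, holds 2 half-sites, GGACTAGCTT at position -73 and GAACATGTCT at position -51 from the start, with 12 bases between them. Only exact matches to the consensus were marked. Directly after GAACATGTCT the window reads tgacatgttc, which departs from the consensus at its first base and so was not marked. Which of these letters p53 binds was not tested. Half-sites up to 13 bases apart occur in 0.0731% of all windows. The Mdm2 half-site GAACTTGCCT begins at position -186, that of Ccng1, GGGCAAGCCT, at -185, and that of Trp53, GGACTTGCCC, at -75. Sesn1, which did not pass at 96 h, has 1 in 1 of its 2 windows. Plk2, with the largest rise, and Btg2 have no match in their windows, which says only that these letters are not there.

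With each duplex set against the control on its own, siRNA 1 gave 7 calls among the 10 genes, all higher, where 22.4% of all genes were called, 11.3% higher and 11.1% lower. With siRNA 2 it was 6, all higher, where 15.2% of all genes were called, 7.81% higher and 7.43% lower. The gene called with siRNA 1 alone was Zmat3, for which the log2 difference was 0.52 ± 0.076 with siRNA 1 (adjusted p = 0.00226) and 0.22 ± 0.076 with siRNA 2 (adjusted p = 0.0951). Both comparisons use the same 2 control arrays. Plk2 rose 2.23-fold with siRNA 1 and 1.81-fold with siRNA 2, and Perp 2.19-fold and 1.74-fold. Mdm2 rose 1.71-fold and 1.30-fold, and Cdkn1a 1.67-fold and 1.44-fold. The smallest rises called with siRNA 2 were those of Ccng1 (1.22-fold, adjusted p = 0.0355) and Btg2 (1.24-fold, adjusted p = 0.0328). The siRNA 2 count was 3 without control replicate 2 and also without either siRNA 2 array, and 4 in a fit of the compared groups alone and without control replicate 1 or either siRNA 1 array of 96 h. With the lung marker mean as a covariate it was 5, and Ccng1 was not called (adjusted p = 0.0616).

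**Figure D2:**
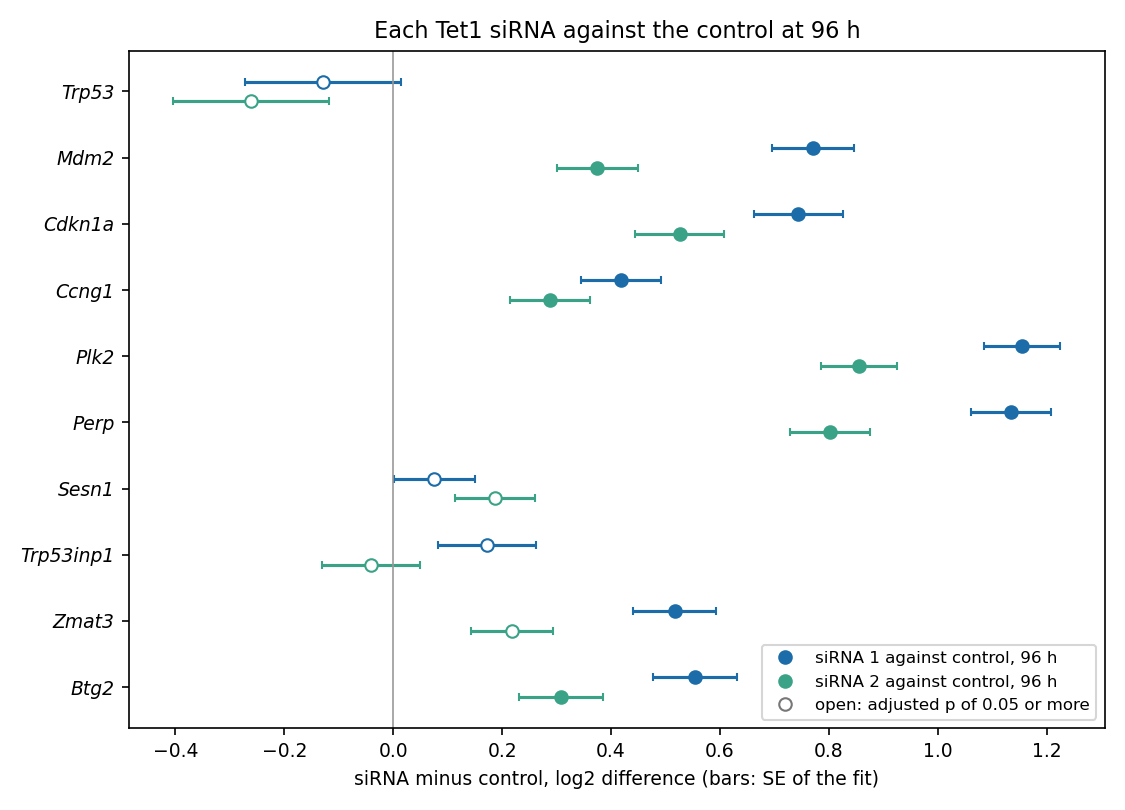
Log2 difference of each Tet1 siRNA from the control at 96 h for Trp53 and the 9 targets, with the SE of the fit as bars and open points for an adjusted p of 0.05 or more. For 9 of 10 genes the siRNA 1 mean lies above the siRNA 2 mean, and Sesn1 is the exception.

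The difference between the duplexes was tested directly. The siRNA 1 mean was above the siRNA 2 mean for 9 of 10 genes, called or not, a share that was not counted over all genes. It was above for each of the 7 that rose with both siRNAs, and for 76.8% of all 1905 genes called higher with both. Mdm2 differed most, by 0.40 ± 0.075 on the log2 scale, with siRNA 1 arrays at 10.52 and 10.60 and siRNA 2 arrays at 10.16 and 10.17 (adjusted p = 0.155). Perp differed by 0.33 ± 0.073 (adjusted p = 0.178), Plk2 by 0.30 ± 0.070 (0.202) and Zmat3 by 0.30 ± 0.076 (0.235). With limma, 0 of 10 genes and 0.0246% of all genes were called. At an unadjusted p below 0.05, 7 of the 10 had siRNA 1 higher, and the share of all genes at that threshold was not counted. In fits with an intensity trend in the prior variance, 4 were called higher with siRNA 1. They were Mdm2 (adjusted p = 0.0119), Perp (0.0192), Plk2 (0.0286) and Zmat3 (0.0392). Over all genes that setting called 129, with 43 higher and 86 lower. Without genes below the median gene mean, 3 were called, where 177 of all genes kept were called, 72 higher and 105 lower. No other alternative called any of the 10. Tet1 itself was lower with siRNA 1 than with siRNA 2 by 0.17 ± 0.10 on the log2 scale (adjusted p = 0.615).

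Other genes of the pathway were read from lists of regulators, further targets and relatives. Of 49 measured further targets of p53, 15 rose, 8 fell and 26 did not pass, where 11.7% of all genes were called higher and 12.0% lower; their median log2 difference was 0.097. Of 15 measured apoptosis targets 5 rose and 1 fell. Pmaip1, which encodes Noxa, an activator of apoptosis, rose by 2.00 ± 0.066 on the log2 scale from a control mean of 8.50 (adjusted p = 6.57e-06). Apaf1, which forms the apoptosome, rose by 0.50 ± 0.097, the nuclease gene Aen by 0.49 ± 0.10 and Phlda3, an inhibitor of Akt signalling, by 0.37 ± 0.077. Without control replicate 2, Apaf1 was not called (adjusted p = 0.0650). Neither was Aen without control replicate 1 (0.0645), nor Phlda3 without control replicate 1 (0.0593) or 2 (0.0577). Without moderation of the variance, Apaf1 and Aen were not called (adjusted p = 0.0593 and 0.0709). The targets Bax and Bbc3, the gene of Puma, had log2 differences of -0.051 ± 0.068 and -0.077 ± 0.071 (adjusted p = 0.635 and 0.483). Bax and Bbc3 were named after their values were seen.

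Of 7 measured targets of cell cycle arrest 2 rose and 2 fell, where 11.7% of all genes were called higher and 12.0% lower. Gadd45a, a sensor of DNA damage and growth arrest, rose by 0.49 ± 0.073 and Rprm, a gene of arrest before mitosis, by 0.33 ± 0.071. Tob1, a relative of Btg2, fell by 0.53 ± 0.065 and the phosphatase gene Ptprv fell by 0.44 ± 0.13. Without control replicate 2, Rprm was not called (adjusted p = 0.103), and Ptprv was not called without either control, siRNA 1 replicate 2 or siRNA 2 replicate 1 of 96 h, or either 48 h array (adjusted p from 0.0527 to 0.163). Nor was it called with the lung covariate (0.0838), without moderation (0.169) or in a fit of the compared groups alone (0.0527). Of 27 measured targets in repair, metabolism and other roles 8 rose and 5 fell, against the same shares of all genes. Thbs1, an inhibitor of blood vessel growth, rose by 1.70 ± 0.12, the excision repair gene Ercc5 by 0.61 ± 0.059 and the small GTPase gene Rap2b by 0.60 ± 0.065. Ephx1, an epoxide hydrolase, fell by 0.89 ± 0.072. The called genes of these lists thus moved in both directions.

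**Figure D3:**
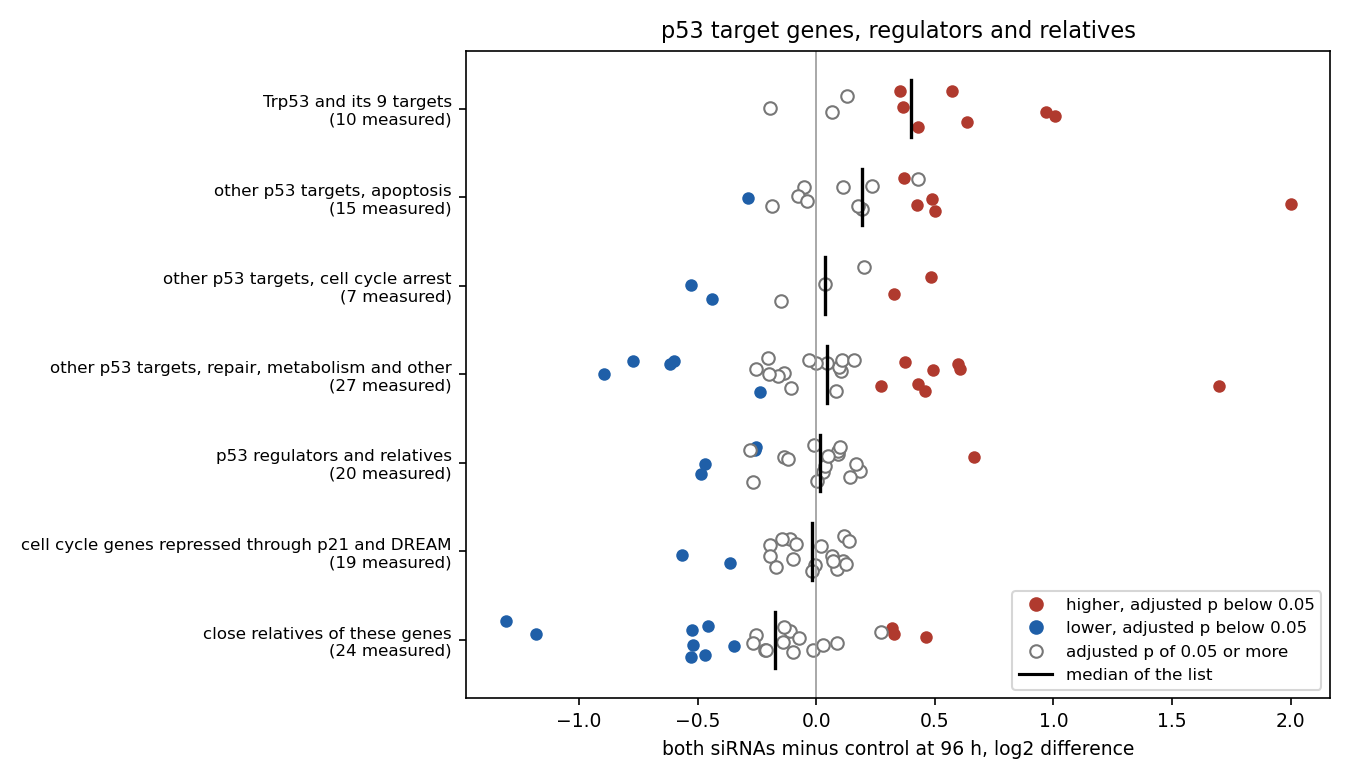
Log2 difference of both siRNAs from the control at 96 h for the 10 genes and for 6 lists, 1 point a gene, with the median of each list as a black line. The 10 genes have a median of 0.40, and the other lists have medians from -0.18 to 0.19 with points on both sides of 0.

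Of 20 measured regulators and relatives of p53, 1 rose and 4 fell, with a median of 0.017, so 5 were called, a share close to the 23.8% of all genes called in either direction. Cdkn2a, whose Arf product inhibits Mdm2, rose by 0.66 ± 0.078. Mdm4, the partner of Mdm2 in restraining p53, fell by 0.47 ± 0.065 from a control mean of 8.40, opposite to Mdm2. The deubiquitinase gene Usp7, which acts on Mdm2 and p53, fell by 0.49 ± 0.11, and the deacetylase gene Sirt1 fell by 0.26 ± 0.068. Usp7 was not called without moderation of the variance (adjusted p = 0.0820). Without control replicate 1, Usp7 was not called (adjusted p = 0.0953). For Sirt1 the adjusted p was above 0.05 without control replicate 1 (0.188) or 2 (0.0549), siRNA 1 replicate 1 (0.0676) or 2 (0.0559), or siRNA 2 replicate 1 (0.0672) of 96 h.

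Genes that p21 represses through the DREAM complex, which are genes of DNA replication and mitosis, were read in the same comparison, where 12.0% of all genes were called lower. Of 19 measured, 2 fell: the transcription factor gene Mybl2 fell by 0.57 ± 0.082, the phosphatase gene Cdc25c fell by 0.36 ± 0.097, and 0 rose in limma. At an unadjusted p below 0.05, 4 were lower and 0 higher, and the share of all genes at that threshold was not counted. The median was -0.016. Cdc25c was not called without moderation of the variance (adjusted p = 0.11) or with the lung covariate (0.0551). Cdc25c lost its call when any single array of 96 h was left out (adjusted p from 0.0505 to 0.138). Of 24 measured relatives of the 10 genes, 3 rose and 8 fell, where 11.7% of all genes were called higher and 12.0% lower, with a median of -0.18. Zmat4 fell by 1.31 ± 0.10, Emp1 fell by 1.18 ± 0.094, and Emp3 rose by 0.47 ± 0.064. Zmat4 was thus lower and Zmat3 higher with the siRNAs. The lists share genes: Mdm4, Trp63 and Trp73 stand among both regulators and relatives, Tob1 and Sesn2 among both targets and relatives, and Plk1 and Plk4 among both DREAM genes and relatives.

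The remaining comparisons involve siRNA 1 at 48 h. Of the 10 genes, 7 were higher and 1 lower at 96 h than at 48 h, and over all genes 37.4% were called, 19.0% higher and 18.4% lower. The lung markers separate the same arrays, with 12 of 21 called higher and 0 lower at 96 h in limma, and 13 and 0 at an unadjusted p below 0.05, so time and lung RNA cannot be told apart in this comparison. The other markers moved too: 9 of 16 fibroblast markers were higher and 2 lower at 96 h, 4 of 11 endothelium and blood markers were higher and 2 lower, and 1 of 12 ES cell markers was higher and 6 lower. Their part in the differences between the times was not tested. With the lung marker mean as a covariate 0 of 10 genes and 0 of all genes were called, since that mean and the time nearly coincide and the errors widened. For Trp53 the SE rose from 0.14 to 0.63.

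Trp53 showed the largest difference of the 10 in time. It read 8.62 and 8.95 at 48 h against 10.99 and 11.15 with siRNA 1 at 96 h, and the control arrays of 96 h stood at 11.15 and 11.25. It was 4.88-fold higher at 96 h than at 48 h (log2 2.29 ± 0.14, adjusted p = 2.99e-05), and 26 of 16253 genes had a larger rise. Against the control at 96 h it was 5.33-fold lower (log2 -2.42 ± 0.14, adjusted p = 6.73e-05), and 14 genes had a larger fall. With the lung covariate the log2 difference between the times was 1.32 ± 0.63 (adjusted p = 0.433). Usp7, named above among the regulators, averaged 10.20 in the controls, 9.86 with siRNA 1 at 96 h and 6.91 at 48 h, with a log2 difference between the times of 2.95 ± 0.12 (adjusted p = 7.09e-06) that was 3.06 ± 0.63 with the lung covariate (adjusted p = 0.269).

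The targets differed among themselves at 48 h. Cdkn1a read 9.20 and 9.36 at 48 h, within reach of the siRNA 2 arrays of 96 h and 1.50-fold above the controls of 96 h (adjusted p = 0.00137). Its difference from siRNA 1 at 96 h, 0.16 ± 0.082, did not pass (adjusted p = 0.156). Zmat3 read 11.04 and 11.10 at 48 h, overlapping siRNA 1 at 96 h, and was 1.40-fold above the controls (adjusted p = 0.00208). Mdm2 stood between, at 10.11 and 10.08, which was 1.23-fold above the controls (adjusted p = 0.0152) and 1.38-fold below siRNA 1 at 96 h (adjusted p = 0.00199). Its call against the controls was lost without control replicate 2 (0.0908) or either 48 h array (0.0666 and 0.0581). Perp, at 10.58 and 10.64, was likewise above the controls (1.38-fold, adjusted p = 0.0022) and below siRNA 1 at 96 h (1.59-fold, adjusted p = 0.000349).

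A further set of targets stood at 48 h near the level of the 96 h controls. Plk2 averaged 10.01 over the 48 h arrays, the higher of which read 10.02, and stood 0.043 ± 0.070 above the controls on the log2 scale (adjusted p = 0.669) and 2.16-fold below siRNA 1 at 96 h (adjusted p = 3.13e-05). Btg2 read 8.89 and 8.96, overlapping the controls (0.0078 ± 0.077, adjusted p = 0.948), and was 1.46-fold higher with siRNA 1 at 96 h (adjusted p = 0.00113). Ccng1, at 10.85 and 10.75, lay below the controls by 0.22 ± 0.074 without passing (adjusted p = 0.0508), and passed with median centring, with an intensity trend, without moderation and without genes below the median gene mean. It was 1.56-fold higher with siRNA 1 at 96 h (adjusted p = 0.000438).

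Sesn1 and Trp53inp1, which did not pass between siRNAs and control at 96 h, differed at 48 h in opposite directions. Sesn1 read 8.51 and 8.41 at 48 h, 1.72-fold above the controls of 96 h (adjusted p = 0.000271) and 1.64-fold above siRNA 1 at 96 h (adjusted p = 0.000267). It was the one gene of the 10 that was lower at 96 h than at 48 h. Trp53inp1 read 8.53 and 8.45 at 48 h, 1.56-fold below the controls (adjusted p = 0.0013) and 1.76-fold below siRNA 1 at 96 h (adjusted p = 0.000348). Against the control at 96 h, 5 of 10 genes were called higher and 2 lower at 48 h, where 34.9% of all genes were called, 16.8% higher and 18.1% lower. Time, duplex and lung RNA all differ between these groups and cannot be told apart. Pmaip1 was 1.70 ± 0.076 above the controls of 96 h on the log2 scale at 48 h.

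**Figure D4:**
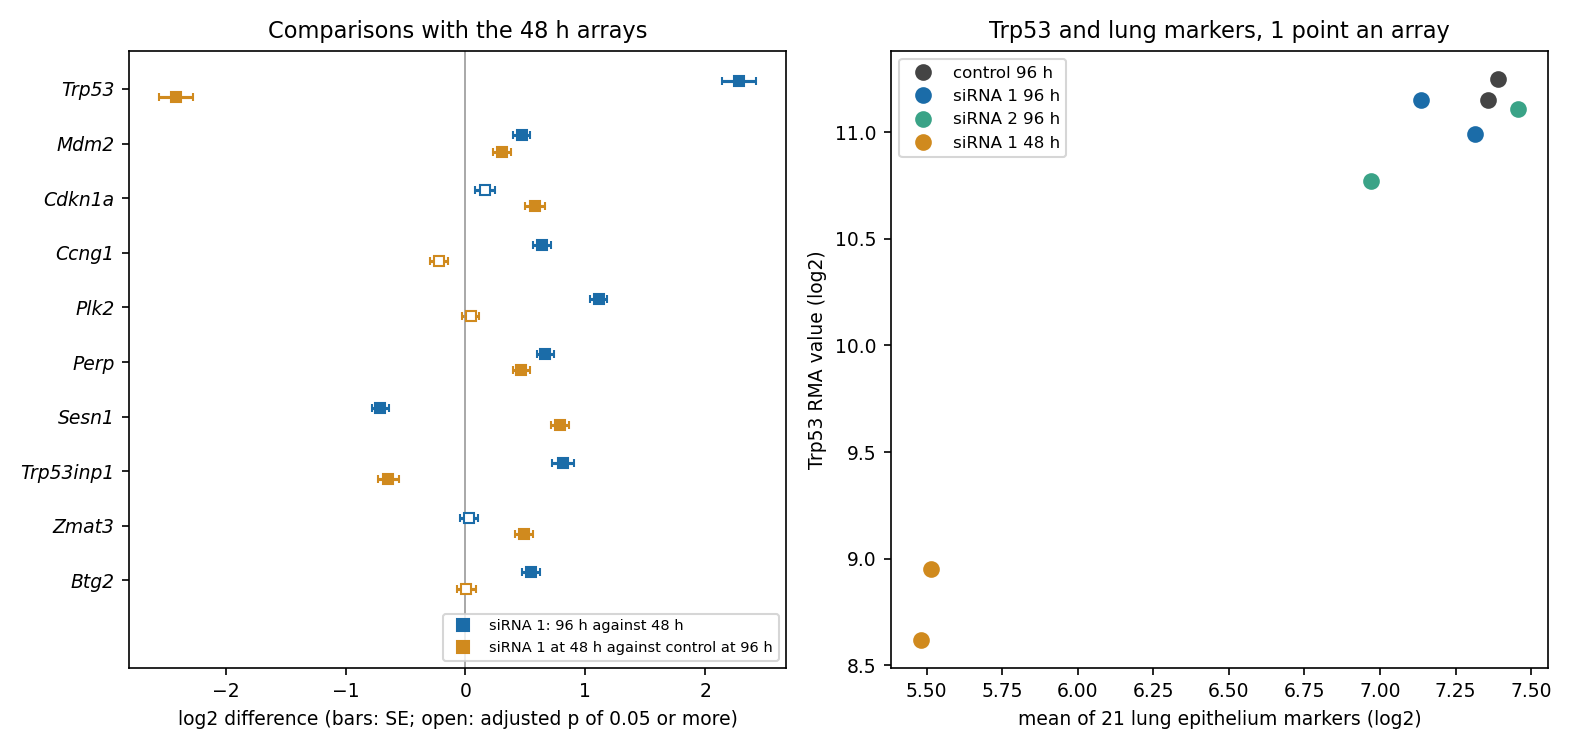
Left, log2 differences of the 10 genes in the comparisons that use the 48 h arrays, with the SE of the fit as bars and open squares for an adjusted p of 0.05 or more. Right, Trp53 against the mean of 21 lung epithelium markers, 1 point an array; the 48 h arrays lie at 5.48 and 5.51 on the horizontal axis and the others at 6.97 or more.

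The order of the group means over the series was the same for Plk2, Perp, Mdm2 and Btg2: siRNA 1 at 96 h, then siRNA 2 at 96 h, siRNA 1 at 48 h and the control at 96 h. Within it the first step, from siRNA 1 to siRNA 2, did not pass the test for any of the 4, and the difference between the last 2 groups did not pass for Plk2 and Btg2. Cdkn1a and Zmat3 had the 48 h group in second place, before siRNA 2. Ccng1 ended with the 48 h group, after the control. Sesn1 began with the 48 h group, and no comparison among its 3 groups of 96 h passed. Trp53 and Trp53inp1 had the 48 h group last, and for both no comparison among the groups of 96 h passed. The comparison of siRNA 2 at 96 h with siRNA 1 at 48 h was not tested.

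Likeness of pattern was measured as the root mean square difference between log2 values over the 8 arrays, each gene centred on its own mean, so that 0 is an identical pattern. Among the 10 genes, Ccng1 and Btg2 were nearest to each other, at 0.105, followed by Cdkn1a and Zmat3 at 0.132 and Mdm2 and Btg2 at 0.133. The gene nearest to Trp53 was Trp53inp1, at 0.72, and the farthest was Sesn1, at 1.31. Of 6394 genes with an SD of at least 0.2, those most like Trp53 were Hdlbp (0.141), Zfp568 (0.148) and Gsn (0.170), which also stood low at 48 h: Hdlbp had a mean of 8.48 there and 10.59 in the controls. Among those most like Mdm2 were Car2 (0.0729) and Tspan5 (0.0730). Most like Cdkn1a were Mfap2 (0.0616), Cdkn2a (0.0661) and Efs (0.0665). These are descriptions over 8 arrays that share their groups, and no test was made of them.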

How the data were processed

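Biotin-labelled total RNA of 8 samples was measured on Affymetrix arrays, per the labels' protocols. The deposited values are log2 expression values per probe set, which the authors made with RMA, per the submitters' processing notes. RMA brings arrays to a common distribution, so a change in total RNA per cell is not visible. The range of the values shows the log2 scale. Scan dates and array batches were not used here, and the number of arrays limits the precision.

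Of 16556 probe sets, 64 controls were left out. The platform annotation named 15270, and in 15250 of these the number of the probe set is the Entrez gene ID. A further 988 probe sets, among them those of Trp53 and Tet1, were named through that number in the RefSeq gene table (GRCm38.p6), and 234 stayed unnamed. For 5 genes with several probe sets the brightest was used.

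With limma 3.58.1 in R 4.3.3, 1 mean per group was fitted over the 8 arrays together, with 4 residual and 4.1 prior degrees of freedom. P-values are two-sided and were adjusted by Benjamini-Hochberg over 16253 genes, separately for each of 6 comparisons, with calls at an adjusted p below 0.05. The mean of both siRNAs has equal weights. Values after ± are standard errors of the fit. The procedure was tested on simulated data with known changes. In all, 19 alternative settings were tried, covering normalization, filters, the variance model, the samples and covariates in the fit, and each array left out. Promoter sequences are RefSeq's, GRCm38.p6.

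The genes, lists and rules were chosen with earlier results of these data known. All 10 genes were named in every comparison. From each further list, up to 4 called genes with the smallest adjusted p were named, and the likeness rule named 3 genes each for Trp53, Mdm2 and Cdkn1a. One of those for Mdm2 is not reported here.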

Additional observations from a re-analysis of the deposited data

How the results depend on the processing

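Of the 1140 values of the 10 genes under alternatives, 1077 kept their direction and side of the threshold, 40 lost a call, 13 gained one and 10 changed sign. For the other named genes and Tet1, 530 of 568 kept both and 38 lost a call. The cause was not tested where not named. With single arrays left out, 6 to 7 of the 10 genes were called with both siRNAs, 7 with siRNA 1, 3 to 6 with siRNA 2, 0 between the siRNAs, 8 between the times and 6 to 7 at 48 h against the control. Over all genes those fits called 2307 to 3465, 1986 to 3469, 1197 to 2114, 0 to 3, 3811 to 5998 and 3340 to 5613 in the same order. Between the siRNAs, 3 of the 10 and 177 of all genes were called without genes below the median gene mean, and 4 and 129 with an intensity trend. All genes called there were 0 without moderation, 0 with the compared groups alone, 2 with the replicate block and 2 with the lung covariate. Without moderation 2342 genes were called with siRNA 1 and 1380 with siRNA 2, and with the compared groups alone 1395 with siRNA 2. The lung covariate left 0 calls among the 10 and 0 among all genes in both comparisons that use 48 h, where it nearly coincides with the time.

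The signs that changed were mostly those of small differences. With single arrays left out, Trp53inp1 ranged from -0.032 (without control replicate 2) to 0.16 with both siRNAs and from -0.14 to 0.058 (without control replicate 1) with siRNA 2, and Trp53 from -0.040 (without siRNA 2 replicate 2) to 0.30 between the siRNAs. In the same fits Zmat3 ranged from -0.0039 (without 48 h replicate 1) to 0.060 between the times, and Btg2 from -0.029 (without 48 h replicate 2) to 0.045 at 48 h against the control, with -0.011 without control replicate 1. Between the times, Cdkn1a was -0.18 with the lung covariate and Zmat3 -0.029 with quantile normalization. At 48 h against the control, Plk2 was -0.11 with the lung covariate and Btg2 -0.0099 with median centring.

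The replicate number was also fitted as a block. Deviations of same-numbered arrays correlated at -0.057 to 0.14 between groups, highest between siRNA 1 and siRNA 2 at 96 h. These values cannot tell whether such arrays share a culture or a batch, which the labels do not give. The block gave 7 calls of the 10 genes with both siRNAs, 7 with siRNA 1 and 4 with siRNA 2, where Ccng1 (adjusted p = 0.0510) and Btg2 (0.0518) lost their calls. Ptprv lost its call with both siRNAs under the block (0.0517). Without scanner background values, no detection limit was applied to dim genes in the tests. The trp level of 3.715 served only to describe how many lung markers lay near it.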
